A study of Mus musculus with 3 samples.

Results

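The genes for the Fcγ receptors of the mouse, their signaling chain, and the kinase that acts on it were examined in bone marrow-derived macrophages (BMDMs). They were the 6 genes Fcgr1, Fcgr2b, Fcgr3, Fcgr4, Fcer1g, and Syk, found by their names among the 34821 gene names of the array design, and they had 7 probes with 16 spots. BMDMs were grown with M-CSF from marrow of C57BL/6J mice. They were exposed for 20 h to CpG, a DNA ligand of TLR9, to IFN-g+IL-10RB, which is interferon-γ given together with an antibody that blocks the IL-10 receptor, or to all of these agents (Triple). RNA of each condition was labeled with Cy3 and hybridized to 1 array, and expression is given as processed signal, the background-subtracted intensity that the scanner software wrote for each spot.

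No array held cells without a stimulus, so that each value is relative to another stimulated culture. Interferon-γ and the blocker were never given apart, and their contributions cannot be told apart. With 1 array per condition no difference had a replicate check, and no test was possible. Fewer cells of a type and less RNA per cell cannot be told apart in such bulk samples. Spots of the same probe within an array had a pooled SD of 0.09 (log2), or 0.13 for a log2 fold between spots of different arrays and 0.18 for a difference of 2 such folds. The error that the scanner software assigned to the probes that stand for the 6 genes was about 10.0% of each signal, which gives 0.20 for a log2 fold. Neither error includes differences between cultures.

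Fcγ receptors bind the constant region of IgG and let macrophages take up antibody-coated particles. FcγRI, FcγRIII, and FcγRIV, encoded by Fcgr1, Fcgr3, and Fcgr4, are activating receptors that pair with the common γ chain encoded by Fcer1g. When the receptors are clustered, Src family kinases phosphorylate the activation motif (ITAM) of the chain, and the kinase Syk binds there and starts the signal for engulfment. FcγRIIB, encoded by Fcgr2b, carries an inhibitory motif (ITIM) that recruits phosphatases such as SHIP-1, the product of Inpp5d. The balance between activating and inhibitory receptors sets how strongly a macrophage answers to immune complexes.

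The labelled cell type was compared with its markers first. Of 8 macrophage markers, 7 were measured and all 7 were well above background on each array, with Csf1r, the M-CSF receptor, the brightest of them at 196810 in CpG, 230482 in IFN-g+IL-10RB, and 159074 in Triple. The others did not share 1 order. Cd14 had 55389 in CpG, 5534 in IFN-g+IL-10RB, and 90961 in Triple, and Emr1, Itgam, and Sfpi1 were also lowest in IFN-g+IL-10RB. Mertk was lowest in CpG, with 812, and Cd68 was lowest in Triple, with a log2 fold of -1.17 over IFN-g+IL-10RB. Lyz2 was not measured because its spots carried outlier marks. All 7 probes of the 6 genes were well above background at every spot of each array, and 0 of their spots carried an outlier mark. None of these spots was saturated, and the raw signal of Fcer1g reached 46.1%, 47.1%, and 51.6% of the scanner's saturation value in the order CpG, IFN-g+IL-10RB, and Triple.

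The activating receptors were described first. Fcgr1 (NM_010186, probe at chr3:96086839-96086898 on mm9) had a processed signal of 25730 in CpG, 52579 in IFN-g+IL-10RB, and 35314 in Triple. Fcgr3 (NM_010188, chr1:172984129-172984188) had 7748 in CpG, 18931 in IFN-g+IL-10RB, and 13123 in Triple. Fcgr4 (NM_144559, chr1:172959738-172959797) was at 29334, 131570, and 107964. Each of the 3 activating receptors was thus lowest in CpG and highest in IFN-g+IL-10RB, with Triple in between. The step between IFN-g+IL-10RB and Triple was small for Fcgr4, whose log2 fold of -0.25 was close to the scanner error of 0.20. It was -0.14, within that error, when the arrays were scaled by the 75th percentile of all probes.

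The inhibitory receptor had another order. The probe of Fcgr2b (NM_001077189, chr1:172890988-172891047) was printed at 10 spots, which gave a mean signal of 2223 in CpG, 941 in IFN-g+IL-10RB, and 4386 in Triple. The 10 spots ranged from 2098 to 2397 with a median of 2220 in CpG. They ranged from 877 to 1024 in IFN-g+IL-10RB, with a median of 945. In Triple they ranged from 4176 to 4767, with a median of 4356. The spots of the 3 arrays did not overlap, and their SD within an array was 0.05, 0.08, and 0.06 (log2) in the order CpG, IFN-g+IL-10RB, and Triple. These spots are repeats of 1 probe on 1 RNA sample and are not replicates of a condition.

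**Figure D1:**
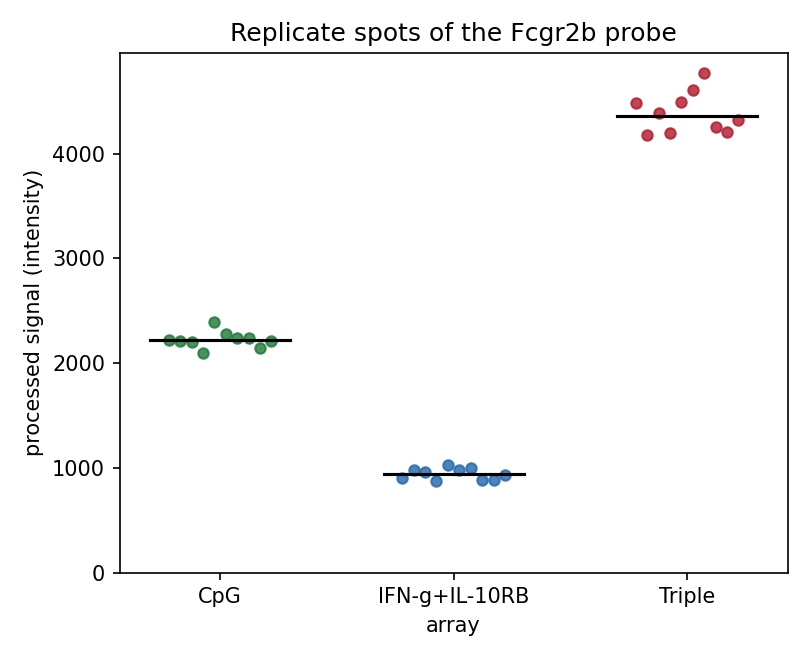
Processed signal (intensity) of the 10 spots of the Fcgr2b probe on each of the 3 arrays; points are spots and the line is the median. The spots lie between 877 and 1024 in IFN-g+IL-10RB, between 2098 and 2397 in CpG, and between 4176 and 4767 in Triple.

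Fcer1g, the common γ chain (NM_010185, chr1:173159794-173159853), had signals of 380315 in CpG, 383188 in IFN-g+IL-10RB, and 417867 in Triple. These 3 values did not differ beyond the scanner error of 0.20 for a log2 fold. When the arrays were scaled by the 75th percentile of all probes, the log2 fold of Triple was beyond that error. It was then 0.27 over IFN-g+IL-10RB and 0.26 over CpG. Syk (NM_011518, chr13:52744088-52744147) had signals of 32408, 9302, and 52628 in the order CpG, IFN-g+IL-10RB, and Triple. Its order, lowest in IFN-g+IL-10RB and highest in Triple, was that of Fcgr2b. A second Syk probe (AK049207, chr13:52738924-52738983) gave signals of 236, 70.3, and 208, with larger scanner errors of 10.4%, 13.9%, and 10.6%. It was also lowest in IFN-g+IL-10RB, but it was not higher in Triple than in CpG.

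**Figure D2:**
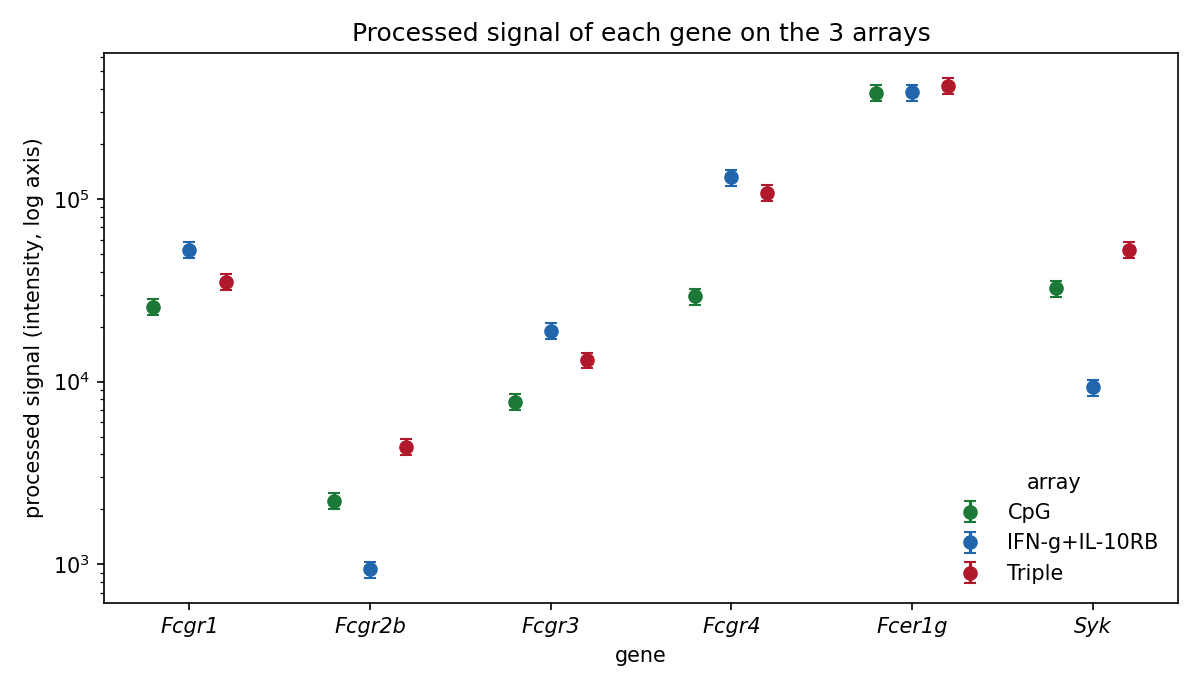
Processed signal (intensity, log axis) of each of the 6 genes on the CpG, IFN-g+IL-10RB, and Triple arrays; bars are the error given by the scanner software. Fcgr1, Fcgr3, and Fcgr4 are highest in IFN-g+IL-10RB, Fcgr2b and Syk are lowest there, and levels of different genes come from different probes and are not comparable.

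The promoters of these genes were then read. Sequences are from RefSeq (GRCm38.p6), and all 6 genes were found, with 8 promoters that run from 250 bases before to 50 after the start. Both strands were searched for TTCNNNGAA, the letters of a gamma activated site, for GAAANNGAA, the core of an interferon-stimulated response element, for GGGNNTTCC, an NF-kB motif, and for GAGGAAGT, bound by the myeloid factor PU.1. Among 32851 promoters, 8.30% held the first, 8.56% the second, 5.82% the third, and 3.20% the fourth. Of the 8 promoters of the 6 genes, 1 held the first, 1 the second, 2 the third, and 1 the fourth. No motif was found in more than 1 of the genes. At the shares of all promoters few of 8 would hold each motif, so that these counts do not set the genes apart. Below are the 250 bases before the start of 4 receptor genes, 5′ to 3′ on the strand of the gene, with matches in capitals.
Fcgr1 (chr3:96293970-96294219, minus strand): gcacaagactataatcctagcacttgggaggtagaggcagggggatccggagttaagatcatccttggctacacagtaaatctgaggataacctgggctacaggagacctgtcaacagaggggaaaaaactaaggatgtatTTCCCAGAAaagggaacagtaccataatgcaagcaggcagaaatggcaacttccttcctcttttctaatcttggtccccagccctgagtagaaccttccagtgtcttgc
Fcgr3 (chr1:171059395-171059644, minus strand): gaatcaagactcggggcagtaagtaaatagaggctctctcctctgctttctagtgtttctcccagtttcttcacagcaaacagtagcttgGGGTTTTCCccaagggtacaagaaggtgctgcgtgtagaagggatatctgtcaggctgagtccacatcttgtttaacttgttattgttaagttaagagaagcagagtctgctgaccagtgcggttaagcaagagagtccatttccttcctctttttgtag
Fcgr4 (chr1:171018676-171018925, plus strand): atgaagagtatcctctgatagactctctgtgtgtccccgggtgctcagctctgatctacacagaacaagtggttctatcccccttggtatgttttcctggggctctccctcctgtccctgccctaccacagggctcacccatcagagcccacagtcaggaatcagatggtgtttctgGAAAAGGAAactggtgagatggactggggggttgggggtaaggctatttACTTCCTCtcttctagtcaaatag
Fcgr2b (chr1:170976072-170976321, minus strand): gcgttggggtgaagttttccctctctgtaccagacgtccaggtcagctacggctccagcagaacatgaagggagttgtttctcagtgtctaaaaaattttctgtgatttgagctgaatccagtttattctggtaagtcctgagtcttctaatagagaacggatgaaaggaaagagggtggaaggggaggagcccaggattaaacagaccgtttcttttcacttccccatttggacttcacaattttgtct

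The promoter of Fcgr1 held TTCCCAGAA, a match to the gamma activated site, 109 bases before its start. That of Fcgr4 held GAAAAGGAA, a match to the response element core, 73 bases before its start, and the PU.1 letters on the other strand 24 bases before it. Both promoters of Fcgr3, which overlap, held the same site with the NF-kB letters GGGTTTTCC, in the one shown 160 bases before its start. Fcgr2b, Fcer1g, and Syk held none of the 4 motifs in this window. A match is a description of letters, and binding was not measured.

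CpG was compared with IFN-g+IL-10RB to see how the receptors stood under each partial stimulus. All 3 activating receptors were more than 2-fold lower in CpG. The log2 fold was -1.06 for Fcgr1, -1.31 for Fcgr3, and -2.19 for Fcgr4, which is a 4.56-fold difference. Fcgr2b was 2.32-fold higher in CpG, with a log2 fold of 1.22, and Syk was 3.42-fold higher, with a log2 fold of 1.78. Fcer1g had a log2 fold of -0.04. Thus 3 of 6 genes were more than 2-fold lower, against 5.84% of the 18280 genes well above background in at least 1 of the arrays, and 2 of 6 were more than 2-fold higher, against 5.06%. Fcgr1 lay close to the threshold, with log2 folds from -1.10 to -1.01 over the settings of the processing.

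Triple was compared with IFN-g+IL-10RB to see what the addition of CpG to the other agents changed. Syk was 5.78-fold higher in Triple, with a log2 fold of 2.53, and 2.88% of the tested genes had a larger fold in either direction. Fcgr2b was 4.76-fold higher, with a log2 fold of 2.25. No activating receptor was past 2-fold, and their log2 folds were -0.54 for Fcgr1, -0.50 for Fcgr3, and -0.25 for Fcgr4. The log2 fold of Fcer1g was 0.16. In this comparison 2 of 6 genes were more than 2-fold higher, against 6.57% of 18063 genes, and 0 were more than 2-fold lower, against 9.31%. The mean of both Syk probes gave a log2 fold of 2.07.

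Triple was compared with CpG to see what interferon-γ and the blocker together changed. Fcgr4 was 3.83-fold higher in Triple, with a log2 fold of 1.94. Fcgr2b was 2.05-fold higher, with a log2 fold of 1.04, and it was no longer past 2-fold without scaling of the arrays (0.98) or with spike-in scaling (0.94). The log2 folds of Fcgr3, Syk, Fcgr1, and Fcer1g were 0.82, 0.76, 0.51, and 0.19. The second Syk probe gave -0.12, and the mean of both probes gave 0.32, so that the probes of Syk did not give the same answer here. Of the 6 genes 2 were more than 2-fold higher, against 7.47% of 18335 genes, and 0 were more than 2-fold lower, against 8.34%. All 3 comparisons share arrays with each other, so that an error in 1 array enters 2 of them.

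**Figure D3:**
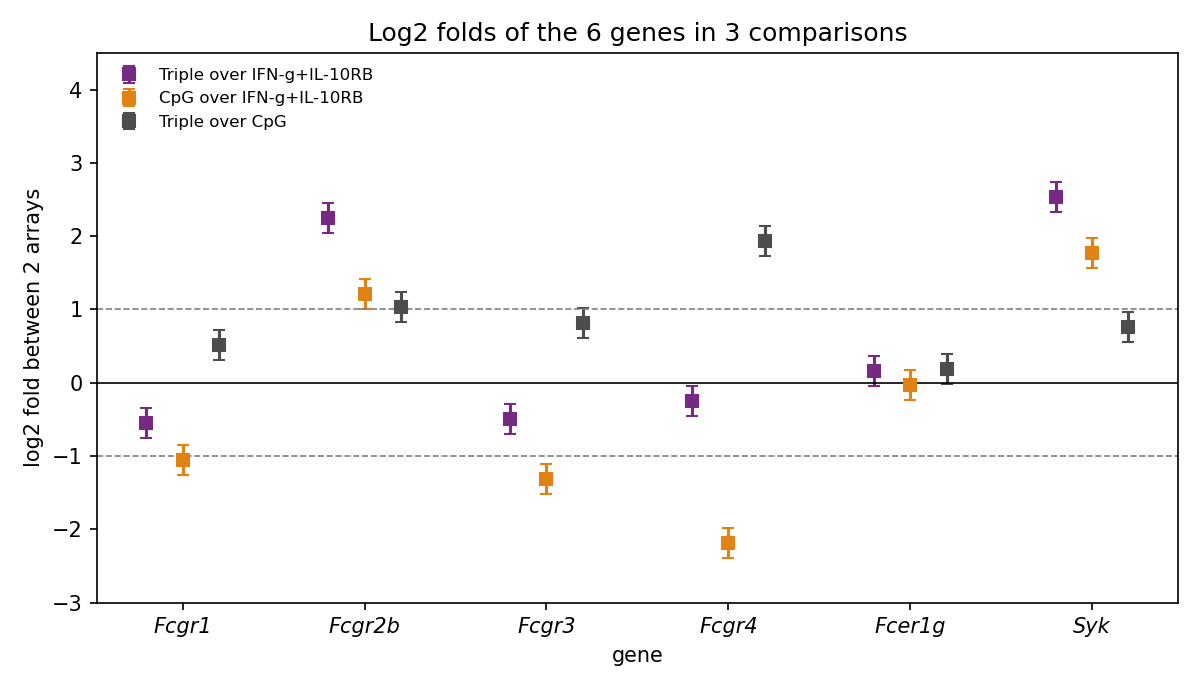
Log2 folds of the 6 genes for Triple over IFN-g+IL-10RB, CpG over IFN-g+IL-10RB, and Triple over CpG; bars are the scanner software's error and dashed lines mark 2-fold. Fcgr1, Fcgr3, and Fcgr4 are below -1 for CpG over IFN-g+IL-10RB, while Fcgr2b and Syk are above 1 there.

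The fold of each activating gene was then set against that of Fcgr2b in the same pair of arrays, a difference in which any scaling of a whole array cancels. For CpG over IFN-g+IL-10RB the difference was -2.27 for Fcgr1, -2.53 for Fcgr3, -3.41 for Fcgr4, and -1.25 for Fcer1g. The value of Fcgr4 is a 10.6-fold change of its ratio to Fcgr2b. The scanner error of each such difference was 0.29. For Triple over IFN-g+IL-10RB the differences were -2.80 for Fcgr1, -2.75 for Fcgr3, -2.51 for Fcgr4, and -2.10 for Fcer1g. The ratio of each activating gene to Fcgr2b was thus highest in IFN-g+IL-10RB. For Triple over CpG the differences were small, with -0.52 for Fcgr1 and -0.22 for Fcgr3, and the latter was within its error. Fcgr4 had a difference of 0.90 in this comparison, and Fcer1g one of -0.84. Fcgr4 was the only one of the 4 whose ratio to Fcgr2b was higher in Triple than in CpG.

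**Figure D4:**
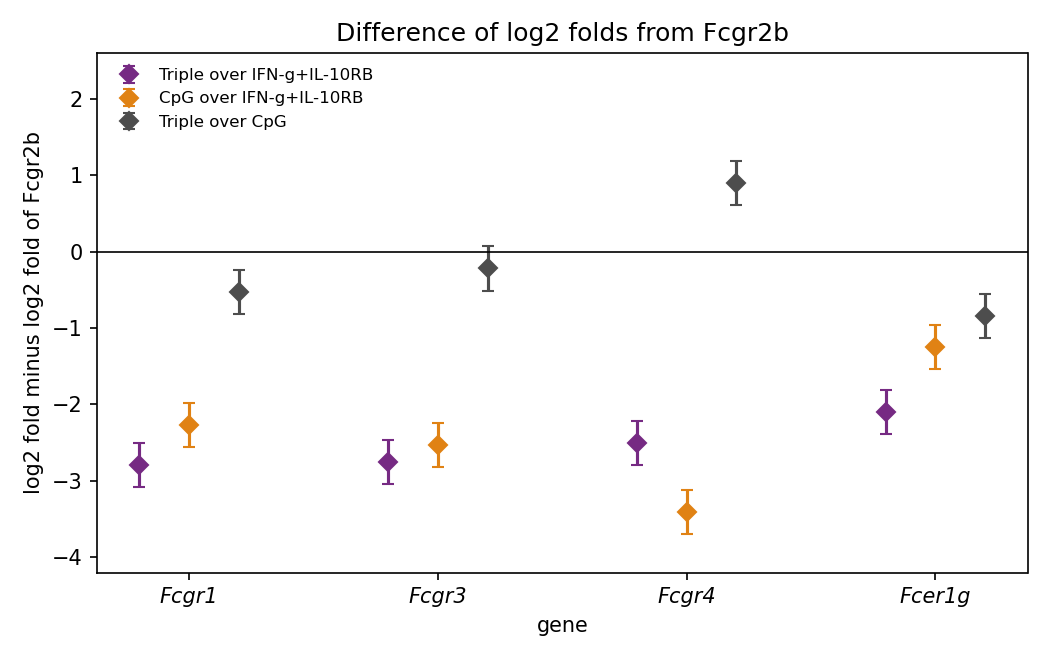
Log2 fold of Fcgr1, Fcgr3, Fcgr4, and Fcer1g minus that of Fcgr2b for the 3 pairs of arrays; bars are the combined scanner error. All values over IFN-g+IL-10RB are below -1, and for Triple over CpG only Fcgr4 is above 0, at 0.90.

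Kinases and adaptors around Syk were examined next. Fgr, a Src family kinase that can phosphorylate ITAMs, had log2 folds of 2.13 for CpG and 1.73 for Triple over IFN-g+IL-10RB. Lyn, of the same family, had a log2 fold of 0.84 for Triple over IFN-g+IL-10RB and did not pass 2-fold in any pair. Of 24 genes that act below Syk, 23 were well above background, and 4 were more than 2-fold higher and 2 more than 2-fold lower in Triple than in IFN-g+IL-10RB, against 6.57% and 9.31% of all genes, with a median of 0.15. The largest increase among them was that of Vav2, a guanine nucleotide exchange factor, with 1.57, followed by Pik3cg, a catalytic subunit of PI3 kinase, with 1.32. The adaptor Lat was lower in Triple, with a log2 fold of -1.83 or below, because its signal in Triple was not well above background. In CpG over IFN-g+IL-10RB 4 of the 23 were higher and 0 lower, against 5.06% and 5.84% of all genes, led by Pik3cg and the adaptor Blnk, both with a log2 fold of 1.63. In Triple over CpG 1 was higher, Malt1 with 1.08, and 1 was lower, again Lat with -1.11 or below, against 7.47% and 8.34% of all genes. The medians of these 2 comparisons were 0.07 and -0.03. Plcg2 and Btk, which relay the signal to calcium release, had log2 folds between -0.23 and 0.11 in all 3 pairs.

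All 16 genes of the engulfment list, which covers actin regulators and lipases used in phagocytosis, were well above background. In Triple over IFN-g+IL-10RB 2 were higher and 1 was lower, against 6.57% and 9.31% of all genes, and the median log2 fold was -0.06. Rac2, a small GTPase of blood cells, had the largest increase, with 1.82 for Triple and 1.60 for CpG over IFN-g+IL-10RB. Elmo1, which works with exchange factors of Rac, was higher in both, with 1.19 and 1.18. The actin-severing protein gene Gsn was lower in Triple, with -1.13. Pla2g4a, a phospholipase, was lower in CpG than in IFN-g+IL-10RB, with -1.45, and higher in Triple than in CpG, with 1.45. These were the only genes of the list past 2-fold. In CpG over IFN-g+IL-10RB 2 were higher and 1 was lower, against 5.06% and 5.84% of all genes, with a median of -0.05. In Triple over CpG 1 was higher and 0 were lower, against 7.47% and 8.34%, with a median of -0.16.

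Of 13 phosphatases and adaptors that FcγRIIB and other inhibitory receptors use, 12 were well above background, and 0 of the 12 were past 2-fold in any of the 3 pairs. The shares of all genes were 6.57% higher and 9.31% lower for Triple over IFN-g+IL-10RB, 5.06% and 5.84% for CpG over IFN-g+IL-10RB, and 7.47% and 8.34% for Triple over CpG, at which few of 12 genes would pass, so that the list is not set apart by its counts. For Triple over IFN-g+IL-10RB the log2 fold was -0.53 for Inpp5d, which encodes SHIP-1, and 0.23 for Ptpn6, which encodes SHP-1. The median of the list was 0.11 in this comparison, 0.15 for CpG over IFN-g+IL-10RB, and -0.02 for Triple over CpG, against -0.05, 0.00, and -0.06 for all genes.

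Other receptors and chains that use ITAMs were also examined. Of 17 listed genes, 13 were measured and 12 were well above background in Triple or IFN-g+IL-10RB. Of these 12, 7 were more than 2-fold higher in Triple and 1 was more than 2-fold lower, against 6.57% and 9.31% of all genes, and the median log2 fold was 1.45. Clec4e, which encodes the lectin Mincle and pairs with the chain of Fcer1g, had signals of 8215 in CpG, 408 in IFN-g+IL-10RB, and 67349 in Triple, with a log2 fold of 7.40 for Triple over IFN-g+IL-10RB. The related Clec4n, which encodes Dectin-2, had a log2 fold of 5.22. Trem2, a receptor that pairs with the chain of Tyrobp, had signals of 108475, 166295, and 18619 and was lower in Triple, with -3.13. Tyrobp had a log2 fold of -0.32 and, like Fcer1g, did not pass 2-fold in any pair. For CpG over IFN-g+IL-10RB 7 of 13 genes were higher and 0 lower, against 5.06% and 5.84% of all genes, with a median of 1.40 and the largest value again that of Clec4e, with 4.31. For Triple over CpG 3 of 13 were higher and 1 was lower, against 7.47% and 8.34% of all genes, with a median of -0.11.

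Receptors with ITIMs other than FcγRIIB differed among themselves. Of 17 listed genes 15 were measured. In Triple over IFN-g+IL-10RB 4 of 13 were higher and 2 were lower, against 6.57% and 9.31% of all genes, with a median of 0.07. Pilra, an inhibitory receptor of myeloid cells, was the highest, with a log2 fold of 3.84, and Cd300lf was the lowest, with -1.46. In CpG over IFN-g+IL-10RB 3 of 14 were higher and 2 lower, against 5.06% and 5.84% of all genes, with 3.22 for Pilra and -2.46 for Cd300lf. In Triple over CpG 2 of 14 were higher and 1 was lower, against 7.47% and 8.34% of all genes, and the largest increase was that of Pecam1, with 1.64. The medians of these 2 comparisons were 0.18 and 0.13. Sirpa, the receptor for CD47, had log2 folds between -0.51 and 0.31 and did not pass 2-fold.

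Among other receptors for immunoglobulins, 12 of 13 genes were measured and 6 were well above background in each pair. Fcgrt, which encodes the neonatal receptor that protects IgG from breakdown, had signals of 3068 in CpG, 3810 in IFN-g+IL-10RB, and 873 in Triple. It was lower in Triple than in both other arrays, with log2 folds of -2.10 over IFN-g+IL-10RB and -1.76 over CpG. Trim21, a receptor for IgG in the cytosol, was higher in Triple than in CpG, with 1.22. No gene of this list was past 2-fold in CpG over IFN-g+IL-10RB. Of the 6 genes well above background 0 were higher and 1 was lower for Triple over IFN-g+IL-10RB, against 6.57% and 9.31% of all genes, and 1 was higher and 1 lower for Triple over CpG, against 7.47% and 8.34%. The medians were 0.10 for Triple and -0.01 for CpG over IFN-g+IL-10RB, and -0.12 for Triple over CpG.

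**Figure D5:**
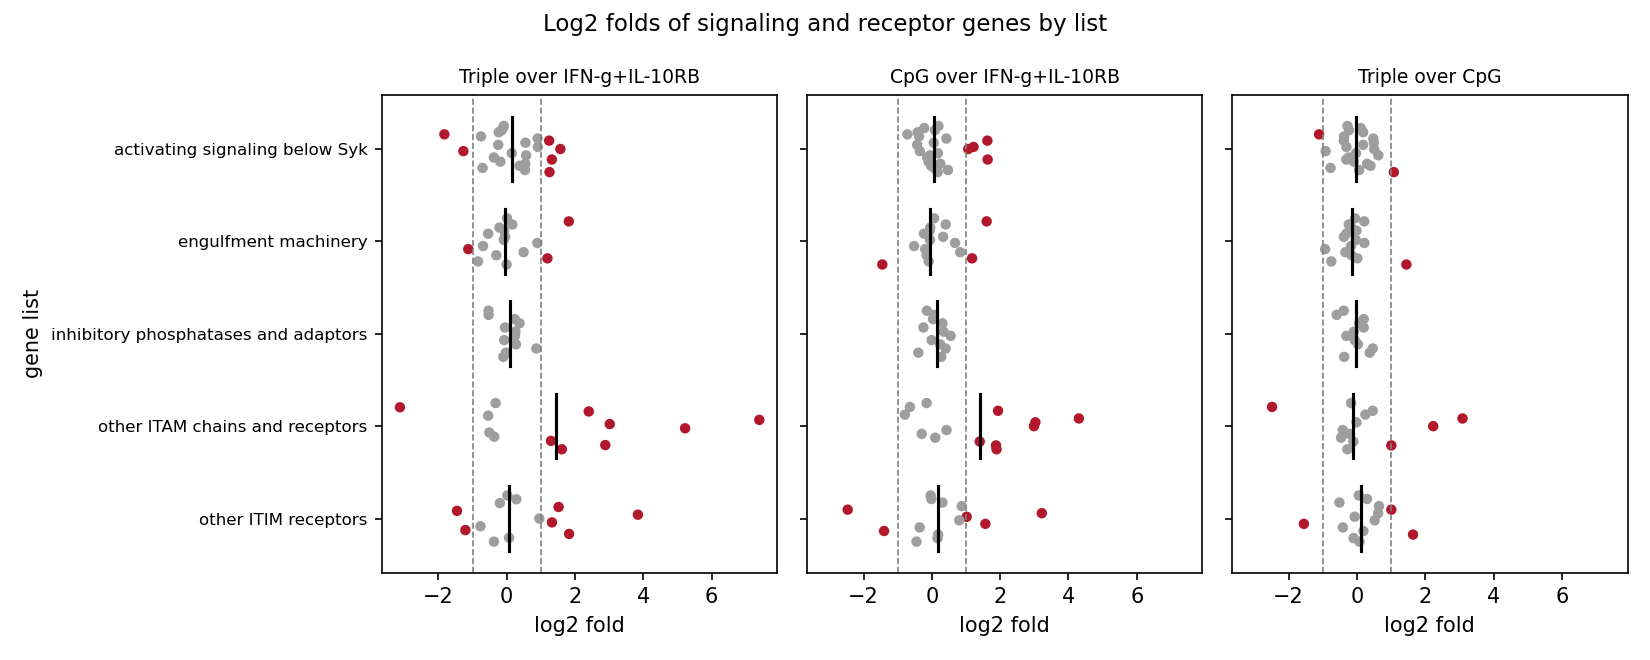
Log2 folds of the genes of 5 lists in the 3 pairs of arrays; points are genes, red where past 2-fold, dashed lines mark 2-fold and black lines are the list medians over genes well above background in at least 1 of both arrays. The list of other ITAM chains and receptors has medians of 1.45 and 1.40 over IFN-g+IL-10RB, and no phosphatase or inhibitory adaptor is past 2-fold.

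Genes of the stimuli's own pathways were read beside the receptors. Irf1, a transcription factor induced by interferon-γ, had signals of 9196 in CpG, 132675 in IFN-g+IL-10RB, and 123964 in Triple, so that it was lowest in CpG, as the activating receptors were. Gbp2 and Cxcl9, also induced by interferon-γ, were lower in CpG than in IFN-g+IL-10RB, with log2 folds of -6.29 and -8.57, and higher in Triple than in CpG, with 6.40 and 12.60. The signal of Cxcl9 in CpG was 38.6, and the lowest signal well above background on that array was 23.8. The size of its folds against CpG is therefore uncertain. Cxcl9 was also higher in Triple than in IFN-g+IL-10RB, with 4.03, and Ciita was lower there, with signals of 258 in IFN-g+IL-10RB and 63.3 in Triple. Of 5 genes of the IL-10 pathway, Il10 had signals of 3117 in CpG, 1271 in IFN-g+IL-10RB, and 9957 in Triple, and Socs3 had 17358, 8207, and 52485. Both were past 2-fold in every pair and had the order of Fcgr2b and Syk. Il10ra was lower in CpG than in IFN-g+IL-10RB, with a log2 fold of -1.25, and the other genes of the list were not past 2-fold. Of all genes 6.57% were higher and 9.31% lower for Triple over IFN-g+IL-10RB, 5.06% and 5.84% for CpG over IFN-g+IL-10RB, and 7.47% and 8.34% for Triple over CpG. The medians of the list in these comparisons were -0.31, 0.11, and 0.79, against -0.05, 0.00, and -0.06 for all genes.

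For each of the 6 genes the genes with the most similar pattern were found by the Euclidean distance between log2 values of the 3 arrays, each centered on its mean, among 10546 named genes well above background on all arrays. For Fcgr4 the 5 nearest were Irgm2, Il15, Slfn1, Grap2, and Tnni3, at distances from 0.029 to 0.080. Those nearest to Syk were Adrbk2, Ehd1, Slc25a10, Tagap1, and Ikbke, at 0.059 to 0.13, and those nearest to Fcgr2b were Car13, Dst, Vasp, Nfkb2, and Adam19, at 0.089 to 0.15. Mad2l2, Cabp5, Arhgap33, and Cpt1a were among the nearest to Fcgr1, and Rap1gap, Mov10, Ttc16, Hsd3b7, and Slc45a3 were the nearest to Fcgr3. Genes with nearly level signals were the nearest to Fcer1g, with Mpc1, Med6, Ppara, Ipo7, and Olfr103. With only 3 arrays many genes lie close to each other in this measure.

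Markers of other cell types were followed as well. Sums and the brightest marker describe the probes of a list and not amounts of RNA, because signals of different probes are not comparable. Among B cell markers Ms4a1, Pax5, and Blk were not well above background on any array, and Cd79b, the brightest, had signals of 801 in CpG, 182 in IFN-g+IL-10RB, and 108 in Triple. Of 5 NK cell markers Ncr1, Klrb1c, and Eomes were not well above background on any array, and the summed signals were 243, 267, and 224, mostly from Prf1. Of 5 T cell markers, Cd3d, Cd3g, and Cd8a were not well above background on any array, whereas Cd4 and Cd3e were on each array. Cd3e had signals of 858, 869, and 806, and the summed signals were 2529, 2830, and 2640, led by Cd4. Of 8 markers of neutrophils and their precursors, 5 were well above background in CpG and 4 in each other array, with summed signals of 3850, 9457, and 4879, and Mpo, Ltf, and Ngp were not well above background on any array. The brightest probe was that of Elane in CpG, with 2839, and that of Ly6g in the others. Ly6g had 555 in CpG, 7699 in IFN-g+IL-10RB, and 2658 in Triple. S100a8 had 297 in CpG, 55.7 in IFN-g+IL-10RB, and 517 in Triple, Camp was also lowest in IFN-g+IL-10RB, and Elane was highest in CpG. S100a9 had 58.0 in CpG and 38.3 in IFN-g+IL-10RB and was not well above background in Triple. The part of these cells in the values of the receptors was not tested. Of 4 measured mast cell markers Fcer1a, Ms4a2, and Mcpt8 were not well above background on any array, and Kit was the only marker above it, in CpG and Triple. The summed mast cell signals were 113, 25.8, and 68.5. Of 4 dendritic cell markers Flt3 and Cd209a were not well above background on any array, and the summed signals were 363, 293, and 3044, led by Ccr7. Of 4 measured fibroblast markers Pdgfra was not well above background on any array, and the summed signals were 539, 326, and 481, led by Col1a2.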

How the data were processed

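Total RNA of BMDMs was measured on Agilent mouse arrays, with 1 array for each of the 3 conditions, grouped by the labels. The authors deposited the scanner files (Agilent Feature Extraction 10.10.1.1), in which the processed signal is an intensity with background removed and no scaling between arrays. A deposited log2 table of these arrays equaled the log2 of that signal minus a constant of each array, within 0.01 for 99.9% of matched probes. Its column medians were -4.26 for CpG, -4.38 for IFN-g+IL-10RB, and -4.27 for Triple. The sources do not say how the constants were chosen.

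Control spots and spots with any of 4 outlier marks (3.04% in CpG, 3.78% in IFN-g+IL-10RB, and 3.33% in Triple) were left out. Log2 values of the spots of a probe were averaged. Of all spots 46.0%, 44.8%, and 44.4% were well above background by the scanner software's mark. As a mean of 44.2% of probes, fewer than 50%, were well above it, each array was shifted by the 75th percentile of probes well above background on all arrays, which lay at signals of 4550, 4473, and 4377. Each gene was read from whichever of its probes had the highest mean, and 33597 genes were analysed. Dim signals were raised to the lowest signal well above background. A gene was called when it was well above background in the brighter array and more than 2-fold different.

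Of the 7 accessions of the probes 6 were found in the RefSeq table. Probe positions are those of the array annotation on mm9, and promoters are from GRCm38.p6. Named genes were the 6 genes, the genes past 2-fold in a list, largest folds first, Fcgrt, Tyrobp, Lyn, Fgr, Inpp5d, Ptpn6, Plcg2, Btk, Sirpa, and Rac2 whatever their values, the markers, and the 5 nearest patterns, and some of these genes are not reported here. The genes and lists were chosen with earlier results of these data known. A planned search of the proteins for ITAM and ITIM sequences was not run because no protein table was available. The alternatives were normexp background correction (limma 3.58.1 in R 4.3.3, offset 50), 5 other scalings, the deposited table, the mean over all probes of a gene, other treatments of outlier marks and of dim signals, and thresholds of 1.5-fold and 3-fold. The use of only the 2 marks of the spot itself was chosen after seeing the data. The code was tested on simulated data. Calculations used Python 3.11.15, numpy 2.4.6, pandas 2.3.3, and matplotlib 3.10.9.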

Additional observations from a re-analysis of the deposited data

How the results depend on the processing

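Under 11 settings for values, the main one included, every fold of Fcgr1, Fcgr2b, Fcgr3, Fcgr4, and Syk kept its direction. Of the folds under the 10 alternatives 171 moved by no more than their technical SD and 9 by more. Some of the 171 could not move, because with the mean over all probes only Syk had more than 1 probe. The differences from Fcgr2b could change only with normexp and quantile normalization, because a shift of a whole array cancels and these genes had 1 probe each and no outlier marks, and they kept their direction in both. For the same reasons the settings for outlier marks changed folds only through the scaling. Fcer1g, close to 0, had the opposite sign in 2 of 11 settings for CpG over IFN-g+IL-10RB. For Triple over IFN-g+IL-10RB, quantile normalization gave 0 for Fcer1g, which held the same rank on both arrays, and -2.29 for its difference from Fcgr2b. Spike-in scaling gave -0.68 for Fcgr1, 2.12 for Fcgr2b, -0.63 for Fcgr3, -0.39 for Fcgr4, 0.022 for Fcer1g, and 2.40 for Syk. In the same comparison Fcgr4 had -0.140 with the 75th percentile of all probes, -0.148 with median scaling, and -0.145 with the deposited table. These values of Fcgr4 were within the scanner error of 0.20. With the same settings and in the same order Fcer1g had 0.270, 0.262, and 0.266, which were beyond that error. With the mean over its probes Syk had 2.07, and 0.32 for Triple over CpG. In Triple over CpG the 2 genes past 2-fold higher became 1 without scaling and 1 with spike-in scaling, where Fcgr2b fell just below the threshold, 1 at 3-fold, and 4 at 1.5-fold. At 3-fold 1 gene was higher and 1 lower in CpG over IFN-g+IL-10RB. Counts of all genes were 1187 higher and 1681 lower for Triple over IFN-g+IL-10RB, 925 and 1068 for CpG over IFN-g+IL-10RB, and 1370 and 1529 for Triple over CpG. In this order they were 2410, 3143, 2049, 2347, 2619, and 3017 at 1.5-fold, 620, 822, 421, 515, 706, and 701 at 3-fold, and 2522, 3088, 2369, 2502, 2767, and 3022 with neither the filter on dim probes nor the lower limit on dim signals. With normexp, 1100 genes were lower in the first, 554 higher and 708 lower in the second, and 916 lower in the third, and the cause was not tested. The median log2 fold for Triple over IFN-g+IL-10RB moved by 0.11 with the 75th percentile of all probes, with median scaling, and with the deposited table, and by -0.13 with spike-in scaling. The counts were then 1410 higher and 1455 lower with the 75th percentile of all probes, and 1002 and 2027 with spike-in scaling. No paired analysis was possible because there was only 1 array for each condition. Genes close to background have folds that depend on the lower limit, while all spots of the 6 genes were well above it.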

Other observations

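Fcgr2b, Fcgr3, Fcgr4, and Fcer1g lie within 269 kb of chromosome 1 (mm9), a span with 13 gene names on the array. Of 5 other genes tested there for Triple over IFN-g+IL-10RB, 1 was more than 2-fold higher and 2 were more than 2-fold lower, against 6.57% and 9.31% of all genes. For Triple over CpG 0 were higher and 2 were lower, against 7.47% and 8.34%. In CpG over IFN-g+IL-10RB, where Fcgr2b, Fcgr3, and Fcgr4 were past 2-fold, 0 of the other genes were, against 5.06% of all genes higher and 5.84% lower. Pcp4l1, chosen after its values were seen, had signals of 9531 in CpG, 6640 in IFN-g+IL-10RB, and 169 in Triple, a pattern that none of the 4 Fc receptor genes had. Gm10522 and 1700009P17Rik, also named after their values were seen, were the others past 2-fold.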
